A study of Mus musculus with 4 samples.

Results

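Kinesins are motor proteins that use ATP to move along microtubules. The genes that encode them and their associated chains were followed in sorted olfactory sensory neurons of mice that express double-stranded RNA and of controls. Genes were taken from the deposited table by symbol, as all entries named Kif or Kifc followed by a number, Kifap3, or Klc followed by a number. This gave 50 entries for 47 genes or joined entries, out of 28168 loci in the table, and where a symbol had several entries the most expressed was used. By their known main roles they were divided into 16 axonal, 10 ciliary, 14 mitotic and 7 other members. The last class includes the pseudogene Kif4-ps. Kif17 shares its entry with the neighbouring gene Sh2d5, so that its values belong to both genes together.

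The series holds 4 RNA libraries from olfactory sensory neurons purified by fluorescence-activated sorting, 2 from Nd1 mice and 2 from controls. By the genotype labels all 4 came from mice carrying OMP-IRES-GFP+/-, a reporter at the gene of the olfactory marker protein. Both Nd1 libraries came from mice that were Nd1+/- and OMP-IRES-tTA+/-, where tTA is a transcriptional activator expressed from Omp, the gene that marks mature olfactory neurons. The control of replicate 1 was Nd1+/- without the activator (OMP-IRES-tTA-/-), and the control of replicate 2 carried the activator (OMP-IRES-tTA+/-) without the insertion (Nd1-/-), so the 2 control libraries differ in genotype. The mice of replicate 1 were 212 days old in both groups and those of replicate 2 were 87 days old, and the header of the table calls the controls littermates. The table gives 1 pooled value per group in FPKM, fragment counts divided by transcript length and library total, which allows levels of different genes to be compared. It holds no value per library, so neither the spread between replicates nor the depth of a library can be given. Fold changes, statistics and q-values are those of the authors' deposited table, made with Cuffdiff, and "rose" and "fell" are used only where q was under 0.05. The error given beside a log2 fold change is the fold change divided by the authors' statistic, that is, the standard error their model implies, and not a spread measured between libraries. The labels do not say that the libraries of a group came from separate animals.

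In neurons most kinesins carry cargo from the cell body towards the axon terminal, each through its own set of adaptors. Kinesin-1, a pair of KIF5 heavy chains with light chains, moves mitochondria and vesicles, and kinesin-3 motors such as KIF1A move synaptic vesicle precursors. Cilia, where olfactory neurons detect odorants, are built and maintained by intraflagellar transport, which heterotrimeric kinesin-2 (KIF3A, KIF3B and the adaptor KAP3) drives outward and cytoplasmic dynein-2 drives back. Another set of kinesins acts in the mitotic spindle and in cytokinesis, and is normally low in cells that no longer divide.

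Of the 47 members, 34 were tested by the authors, 2 had a failed test (Kif1b and Kif2a) and 11 were not tested. Of the 34 tested members 14 (41.2%) passed in the authors' deposited table, beside 34.4% of all tested loci. Of these 8 were higher in Nd1 (23.5% of the tested members, against 15.1% of all tested loci) and 6 were lower (17.6%, against 19.2%). With the odorant receptors left out, the background was 16.2% higher and 14.1% lower. The share of falls lay near that of the table, and no test compared the share of rises with it. Most of the changes were small. All 6 falls were under 1.5-fold, whereas 6 of the 8 rises were at least that large, and at this size 17.6% of the tested members passed against 23.1% of all tested loci (10.6% higher and 12.5% lower). Those 6 were Kif21b, Kif19a, the joined entry of Kif17 and Sh2d5, Kifc3, Kif11 and Kifc1. None of them exceeded 10 FPKM in control. Of 18 tested members averaging 10 FPKM or more over the groups, 17 stayed within 1.5-fold. The exception was the joined entry of Kif17 and Sh2d5.

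The levels set the classes far apart. The summed FPKM of all members was 1213 in control and 1248 in Nd1. Axonal kinesins made up 68.9% of this sum in control and 68.2% in Nd1, ciliary kinesins 27.5% and 27.3%, and mitotic kinesins 0.410% and 0.506%. Kif1a, Klc2 and Kif5b were the most abundant members in control, at 128, 126 and 119 FPKM, above 97.7%, 97.6% and 97.4% of the tested loci. At the other end, 12 of the 14 mitotic members stayed under 1 FPKM in both groups, and Kif2b, Kif12 and Kif4-ps were listed at 0 in both.

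**Figure D1:**
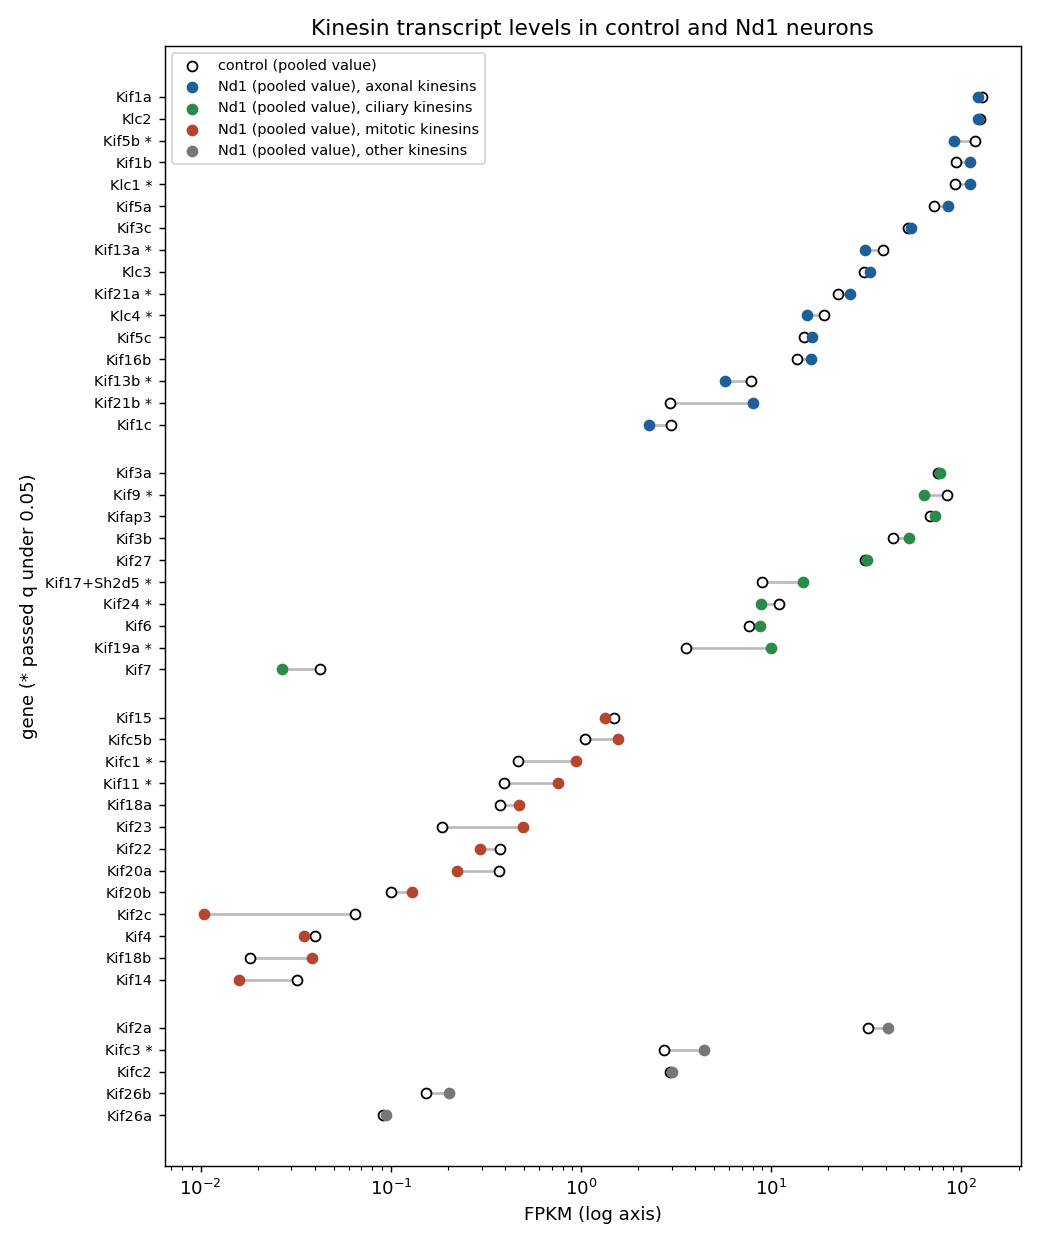
FPKM of each kinesin in control (open circles) and Nd1 (filled circles) on a log axis, by class and in order of mean level, 1 pooled value per group without error; members listed at 0 in both groups are left out and asterisks mark members that passed q under 0.05. Axonal kinesins lie between 2.29 and 128 FPKM, mitotic ones no higher than 1.57 FPKM, and the widest gaps above 1 FPKM are those of Kif21b and Kif19a.

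Promoter sequences from RefSeq (build GRCm38.p6, 250 bases before to 50 bases after each annotated start) were at hand for 37 of the 47 members and 9 of the 14 that passed, Kif21b and Kif19a not among them. They are shown for the mitotic kinesins that rose, Kif11 and Kifc1, and for the ciliary motors Kif9, which fell, and Kif17, whose joined entry rose. These coordinates are on GRCm38.p6 and are not comparable with those of the table, which are on mm9. In the first pair capitals mark the letters of TTTGAA, the core of the cell cycle homology region known from promoters of genes active in mitosis, here read on the opposite strand. In the second pair capitals mark GTTGCC, the first letters of the X-box bound by RFX factors, which are known regulators of ciliary genes.
Kif11, chr19:37376132-37376431, plus strand: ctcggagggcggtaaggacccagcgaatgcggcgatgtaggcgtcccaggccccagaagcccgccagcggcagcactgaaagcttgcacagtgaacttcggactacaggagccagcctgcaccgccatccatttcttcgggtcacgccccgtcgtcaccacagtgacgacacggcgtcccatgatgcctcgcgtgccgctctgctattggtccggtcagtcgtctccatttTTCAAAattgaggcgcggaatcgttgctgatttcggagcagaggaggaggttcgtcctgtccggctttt
Kifc1, chr17:33890584-33890883, minus strand: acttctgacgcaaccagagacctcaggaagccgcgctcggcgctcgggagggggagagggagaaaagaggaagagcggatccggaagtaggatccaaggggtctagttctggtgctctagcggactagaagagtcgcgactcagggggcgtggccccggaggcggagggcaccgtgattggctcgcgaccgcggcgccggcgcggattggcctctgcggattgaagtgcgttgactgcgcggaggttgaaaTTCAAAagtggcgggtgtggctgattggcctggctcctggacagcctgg
Kif9, chr9:110476744-110477043, plus strand: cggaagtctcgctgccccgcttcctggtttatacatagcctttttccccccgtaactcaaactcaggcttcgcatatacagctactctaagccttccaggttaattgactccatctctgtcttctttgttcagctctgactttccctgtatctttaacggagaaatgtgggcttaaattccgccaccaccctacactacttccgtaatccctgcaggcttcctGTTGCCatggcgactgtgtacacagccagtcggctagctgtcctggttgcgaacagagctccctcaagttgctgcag
Kif17, chr4:138262001-138262300, plus strand: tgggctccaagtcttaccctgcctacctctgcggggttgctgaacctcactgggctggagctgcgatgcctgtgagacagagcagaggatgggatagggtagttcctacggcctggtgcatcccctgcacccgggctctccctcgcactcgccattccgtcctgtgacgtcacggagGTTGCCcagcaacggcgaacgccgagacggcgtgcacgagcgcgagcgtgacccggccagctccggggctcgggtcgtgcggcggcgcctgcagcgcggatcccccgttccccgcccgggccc

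The match began at position -19 from the annotated start in Kif11, at position 2 in Kifc1, at -27 in Kif9 and at -73 in Kif17. Kif9 has a further annotated start whose window overlaps the one shown. With both strands read, TTTGAA was found in the promoters of 11 of 13 mitotic kinesins, 1 of 11 axonal and 1 of 9 ciliary ones, and in 17.9% of all 32851 promoters of the same length. The mitotic members with it included 9 that did not pass or were not tested, among them Kif15, Kif23 and Kifc5b. CCAAT, the NF-Y box common in such promoters, was in 9 of 13 mitotic, 6 of 9 ciliary and 3 of 11 axonal kinesins, against 37.4% of all promoters. GTTGCC was in 4 of 9 ciliary kinesins (Kif3a, Kif9, Kif17 and Kif24), in 4 of 11 axonal and 2 of 13 mitotic ones, against 12.5% of all. A longer form of the X-box (GTTGCC, 2 free bases, GG, 2 free bases and AC), chosen after the promoter of Kif9 had been read and overlapping the shorter match, was in Kif9, Kif18a and Kif23 and in 0.731% of all promoters. The interferon-stimulated response element, read as GAAA, 2 free bases and GAAA, was in 2 of the 37 kinesin genes, Kif1a and Kif14, against 3.44% of all promoters. The Olf/Ebf site, read as TCCC, 2 free bases and GGGA, was in Kif13a, which fell, and in 0.904% of all promoters. Kinesins were counted by gene, with a match in any promoter entry of the gene (41 entries for the 37 genes). The shares of all promoters count entries instead, so the kinesin counts and these shares are not in the same unit. The matches describe the letters of the windows and were not tested as binding sites.

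Among the axonal kinesins 3 rose and 4 fell of 15 tested, and 8 did not pass. This was 20% higher and 26.7% lower, beside 15.1% and 19.2% of all tested loci. The rises were Kif21b, Kif21a and Klc1 and the falls Kif5b, Kif13a, Kif13b and Klc4. Over the 15 tested members, all above the floor of 0.5 FPKM mean, the median log2 ratio with 1 FPKM added to each value was 0.044, beside -0.060 over the 13727 tested loci past that floor. Their summed level was 836 FPKM in control and 852 in Nd1.

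Kif21b had the clearest change of this class. It encodes a kinesin-4 motor enriched in neurons that limits microtubule growth and carries receptors, and lies on mm9 at chromosome 1, 138027978 to 138074591. Kif21b had 2.93 FPKM in control and 8.01 in Nd1, a 2.73-fold rise. Its log2 fold change in the authors' deposited table was 1.45 ± 0.057 (implied standard error), with q listed as 0. Its close relative Kif21a, which shares the growth-limiting activity, rose far less, from 22.5 to 25.9 FPKM, at a log2 fold change of 0.20 ± 0.046 and q = 6.6e-05 in the authors' deposited table. Kif21b accordingly made up 11.5% of the summed FPKM of this pair in control and 23.6% in Nd1. Whether both genes differ in their change was not tested.

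Of the kinesin-1 heavy chains only Kif5b passed. Kif5b, the heavy chain found in most cell types (mm9 chromosome 18, 6201003 to 6268385), fell from 119 to 91.9 FPKM, at a log2 fold change of -0.37 ± 0.11 and q = 0.00313 in the authors' deposited table. Kif5a, the neuronal form mutated in hereditary spastic paraplegia, had 71.6 FPKM in control and 84.7 in Nd1 and did not pass (log2 fold change 0.24 ± 0.12, q = 0.122 in the authors' deposited table). Kif5c, the other neuronal form, stood at 14.9 and 16.4 FPKM (q = 0.429 in the authors' deposited table). The share of Kif5b among the 3 heavy chains was 57.8% in control and 47.6% in Nd1, and that of Kif5a 34.9% and 43.9%. The sum of all 3 was 205 FPKM in control and 193 in Nd1.

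The light chains, which bind cargo to these heavy chains, were more abundant in sum, with totals of 268 FPKM in control and 282 in Nd1. Klc1, the chain most typical of neurons, rose from 92.3 to 111 FPKM (log2 fold change 0.27 ± 0.10, q = 0.0294 in the authors' deposited table). Klc4 fell from 19.0 to 15.5 FPKM (-0.30 ± 0.11, q = 0.0257 in the authors' deposited table). Klc2, the most abundant light chain in both groups, stood at 126 and 122 FPKM and did not pass (q = 0.156 in the authors' deposited table), and its sign differed after centring or quantile normalization. Klc3, known from sperm tails, stood at 30.7 and 33.1 FPKM (q = 0.529 in the authors' deposited table). Other genes have entries over the bounds of Klc1 (Xrcc3, 1.85 and 1.53 FPKM) and of Klc3 (the joined Ercc2 and Mir343, 19.6 and 13.7 FPKM), and whether the counting used strand is not given in the sources used here.

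**Figure D2:**
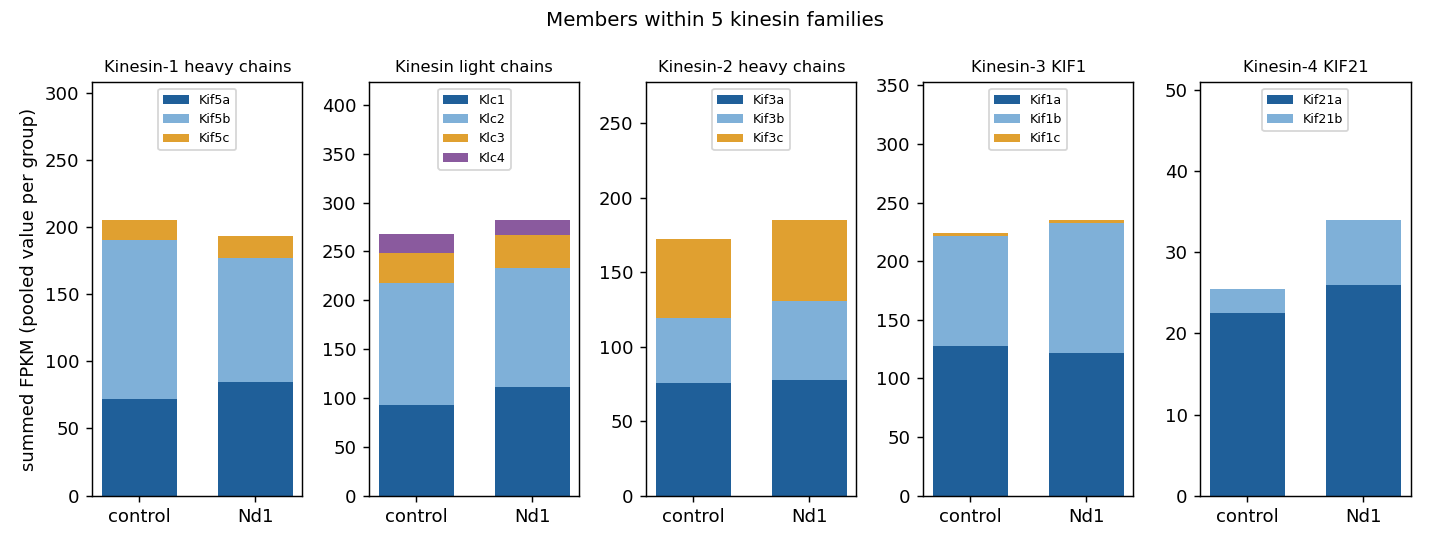
Summed FPKM of 5 kinesin families in control and Nd1, each bar divided by member, 1 pooled value per group without error and with separate axes starting at 0. Kif5b takes a smaller part of the kinesin-1 bar in Nd1 (47.6% against 57.8%) and Kif21b a larger part of the kinesin-4 bar (23.6% against 11.5%).

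The kinesin-3 motors for synaptic vesicle precursors and mitochondria gave no call. Kif1a had 128 FPKM in control and 122 in Nd1, with a log2 fold change of -0.07 ± 0.16 and q = 0.789 in the authors' deposited table. The interval implied for it runs from -0.38 to 0.24. The authors' test failed for Kif1b, which stood at 93.3 and 111 FPKM. Kif1c, a widely expressed relative, was low at 2.96 and 2.29 FPKM (q = 0.102 in the authors' deposited table). The remaining kinesin-3 members act on endosomes and related vesicles. Kif13a, which carries recycling endosome and trans-Golgi cargo, fell from 38.7 to 31.2 FPKM (-0.31 ± 0.060, q = 1.44e-06 in the authors' deposited table). Kif13b, whose cargo includes the phosphoinositide-binding protein centaurin-alpha and Dlg1, fell from 7.86 to 5.75 FPKM (-0.45 ± 0.11, q = 0.000346 in the authors' deposited table). Kif16b, a motor of early endosomes, stood at 13.7 and 16.2 FPKM and did not pass (q = 0.164 in the authors' deposited table). Kif3c, a kinesin-2 heavy chain of neurons, stood at 52.8 and 54.4 FPKM (q = 0.799 in the authors' deposited table).

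A small log2 fold change could thus pass or miss the threshold according to the error of the authors' model. Kif21a passed at 0.20 with an implied standard error of 0.046, whereas Kif5a, at 0.24 with 0.12, did not. Klc2 had an implied error of 0.024 and Kif1a one of 0.16, at levels of 126 and 128 FPKM in control. A member without a call is therefore not shown to have kept its level.

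**Figure D3:**
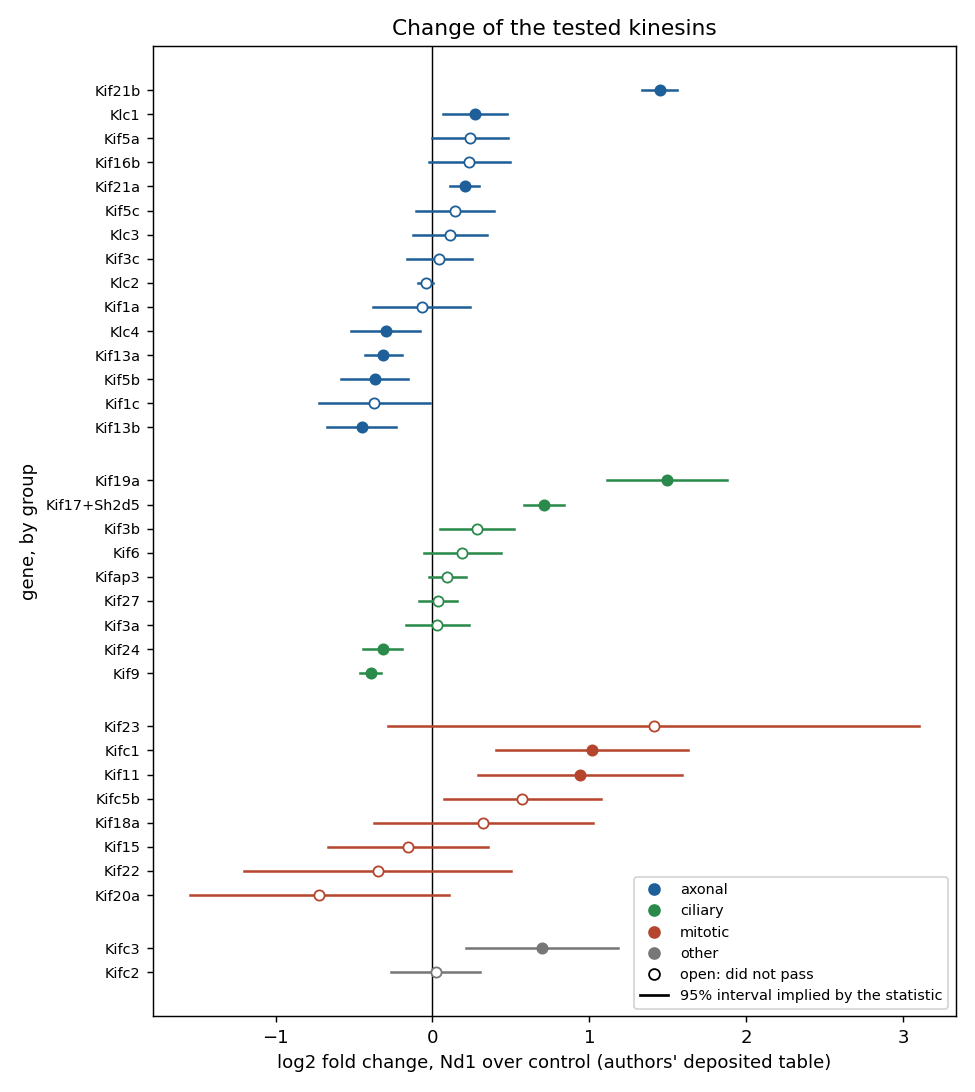
Log2 fold change of Nd1 over control for the 34 tested kinesins in the authors' deposited table, by class, with the 95% interval implied by the authors' statistic, unadjusted for the number of genes; filled points passed q under 0.05. Kif21b (1.45) and Kif19a (1.50) lie furthest right among the filled points, all filled points left of 0 lie between -0.45 and -0.30, and the mitotic members have the widest intervals.

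The ciliary kinesins gave 2 rises and 2 falls among 9 tested, and 5 did not pass. Higher and lower members were each 22.2%, beside 15.1% and 19.2% of all tested loci. The median log2 ratio of the class was 0.092 with 1 FPKM added, and its sum was 334 FPKM in control and 341 in Nd1. The heterotrimeric kinesin-2 motor of intraflagellar transport gave no call in any of its 3 subunits. Kif3a had 75.8 FPKM in control and 77.5 in Nd1 (log2 fold change 0.03 ± 0.10, q = 0.853 in the authors' deposited table). Kifap3, the adaptor KAP3, stood at 68.4 and 72.9 FPKM (0.09 ± 0.060, q = 0.240 in the authors' deposited table). Kif3b, the second motor subunit, was nearest to the threshold, with 43.6 and 53.1 FPKM (0.29 ± 0.12, q = 0.0530 in the authors' deposited table).

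Of the remaining ciliary members the joined entry of Kif17 and Sh2d5 rose from 8.94 to 14.7 FPKM (mm9 chromosome 4, 137806326 to 137857888), with a log2 fold change of 0.71 ± 0.065 and q listed as 0 in the authors' deposited table. Kif17 is the homodimeric kinesin-2 that takes the olfactory cyclic nucleotide-gated channel into cilia, and Sh2d5 is a neighbouring adaptor gene. The table does not divide the value between them. Kif19a, which depolymerizes microtubules and sets the length of motile cilia (mm9 chromosome 11, 114626703 to 114651889), had the largest rise of all tested members that passed. It went from 3.55 to 10.02 FPKM, a 2.82-fold rise (1.50 ± 0.20, q = 3.19e-13 in the authors' deposited table). Kif9, a motor of the central apparatus of motile cilia and the most abundant ciliary kinesin in control, fell from 83.7 to 63.7 FPKM (-0.39 ± 0.034, q listed as 0 in the authors' deposited table; mm9 chromosome 9, 110379462 to 110427678). Kif24, which restrains the formation of cilia at the mother centriole, fell from 10.97 to 8.81 FPKM (-0.32 ± 0.063, q = 3.83e-06 in the authors' deposited table). Kif27, a relative of Kif7, stood at 31.1 and 31.8 FPKM (q = 0.731 in the authors' deposited table). Kif6 stood at 7.69 and 8.78 FPKM (q = 0.259 in the authors' deposited table). Kif7, which organizes the ciliary tip for Hedgehog signalling, was at 0.042 and 0.027 FPKM and was not tested.

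Markers of motile cilia did not move in a single direction either. Of 18 tested genes of that list 8 rose (44.4%) and 3 fell (16.7%) in the authors' deposited table. Over all tested loci 15.1% were higher and 19.2% lower. On the scale with 1 FPKM added, the list median was 0.17 over the 17 tested genes averaging 0.5 FPKM or more. Over all 18 tested genes it was 0.27. Tppp3, a tubulin polymerization protein, rose from 57.3 to 335 FPKM, Tekt2, a tektin of the axoneme, from 0.475 to 5.25, and the adenylate kinase Ak7 from 1.00 to 7.41 FPKM. Ccdc40, an axonemal ruler protein, fell from 87.8 to 62.8 FPKM and its partner Ccdc39 from 54.7 to 41.6 FPKM. The summed level of the list was 526 FPKM in control and 813 in Nd1, and 469 and 478 without Tppp3. Foxj1, the defining transcription factor of motile ciliated cells, is joined to Rnf157 in an entry at 119 and 110 FPKM (q = 0.0688 in the authors' deposited table). No marker of the list was at 0 in either group. Their part in the changes of Kif19a and Kif9 was not tested. In such sorted populations a different number of cells of a type and a different amount of RNA per cell cannot be told apart.

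Genes of intraflagellar transport, the train that the kinesin-2 motor pulls, had few calls. Of 27 tested members 2 rose, 1 fell and 24 missed the threshold in the authors' deposited table (11.1% called, beside 34.4% of all tested loci), with a median of -0.007. The rises were those of Ttc21b, a subunit of the retrograde complex (1.24 to 3.29 FPKM), and Traf3ip1, known as IFT54 (69.6 to 83.4 FPKM). The fall was that of Dync2h1, the heavy chain of the return motor dynein-2, from 36.8 to 27.9 FPKM (q = 7.84e-05 in the authors' deposited table). Their combined level was 931 FPKM in control and 937 in Nd1.

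The mitotic kinesins were scarcely detected. Of 14 members 8 were tested, 2 rose, none fell and 6 missed the threshold in the authors' deposited table. The called share was 25% of the tested members, beside 34.4% of all tested loci. Kif11, the bipolar kinesin-5 that separates spindle poles (mm9 chromosome 19, 37450893 to 37496349), rose from 0.394 to 0.756 FPKM, at a log2 fold change of 0.94 ± 0.33 and q = 0.0164 in the authors' deposited table. Kifc1, a minus-end directed kinesin-14 that focuses spindle poles (mm9 chromosome 17, 34012611 to 34027578), rose from 0.464 to 0.939 FPKM (1.02 ± 0.31, q = 0.00471 in the authors' deposited table). Kifc5b, a close copy of Kifc1, stood at 1.05 and 1.57 FPKM (0.57 ± 0.26, q = 0.0685 in the authors' deposited table). Reads shared by these 2 genes may have been split in a way the table does not show, so the value of either is uncertain.

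The other tested mitotic members varied in sign. Kif15, a spindle motor that can stand in for Kif11, had 1.49 FPKM in control and 1.34 in Nd1 (q = 0.701 in the authors' deposited table). Kif23, a subunit of the centralspindlin complex of cytokinesis, stood at 0.186 and 0.495 FPKM, with an implied interval of its log2 fold change from -0.28 to 3.10. Kif18a, a motor of chromosome alignment, stood at 0.375 and 0.470 FPKM. Kif20a, a motor of the central spindle, stood at 0.370 and 0.224 FPKM, and the table's bounds for it are shared by Brd8 (26.3 and 23.7 FPKM) and Cdc23 (12.5 and 13.4 FPKM). Kif22, a chromokinesin, stood at 0.377 and 0.296 FPKM. The 6 members that were not tested, Kif2b, Kif2c, Kif4, Kif14, Kif18b and Kif20b, were all at or under 0.130 FPKM in both groups. The median log2 ratio was 0.33 over the 4 tested members averaging 0.5 FPKM or more. Kif11 and Kifc1 reached that mean through their Nd1 values alone, their control values being below it, so this median is no support for a rise of the class.

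Most other genes of mitosis were low too, but Racgap1, Prc1, Incenp and Aurka stood above every mitotic kinesin in both groups. Of 24 listed genes that the table holds, 10 were tested, of which 1 rose and 1 fell in the authors' deposited table. This was 20% called, beside 34.4% of all tested loci. The rise was that of Prc1, a bundler of spindle midzone microtubules, from 5.21 to 6.996 FPKM, and the fall that of Racgap1, the centralspindlin partner of Kif23, from 10.8 to 7.87 FPKM. The proliferation marker Mki67 had 0.264 FPKM in control and 0.154 in Nd1 and was not tested. Among markers of basal and progenitor cells of the epithelium 4 of 6 tested fell (66.7%, beside 19.2% of all tested loci) and none rose. The falls included Krt5 (8.03 to 3.86 FPKM) and Trp63 (1.85 to 0.847 FPKM). The sum of that list was 22.4 FPKM in control and 17.0 in Nd1, no marker of it was at 0, and its part in the changes of Kif11 and Kifc1 was not tested.

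The remaining kinesins fall into no single class. Kifc3, a minus-end directed kinesin that acts in epithelial junctions and apical transport, rose from 2.73 to 4.43 FPKM (mm9 chromosome 8, 97605101 to 97666440), with a log2 fold change of 0.70 ± 0.25 and q = 0.0162 in the authors' deposited table. Sustentacular cells are the epithelial neighbours of these neurons. Of 9 tested markers of them 4 fell (44.4%, beside 19.2% of all tested loci), 5 did not pass and none rose. The markers summed to 335 FPKM in control and 298 in Nd1. No sustentacular marker found in the table was at 0, and their part in the change of Kifc3 was not tested. Kifc2, a minus-end directed kinesin of neurons, stood at 2.95 and 2.996 FPKM (q = 0.937 in the authors' deposited table). Kif2a, a microtubule depolymerase that limits axon branching, had 32.3 FPKM in control and 41.0 in Nd1, and the authors' test failed for it. Kif26a and Kif26b, which lack motor activity in the usual sense, were at or under 0.203 FPKM in both groups.

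Of 17 tested adaptors and regulators of the axonal kinesins 3 rose, 2 fell and 12 missed the threshold in the authors' deposited table. This was 29.4% called, near the 34.4% of all tested loci. The list median was -0.034 over the 16 tested genes averaging 0.5 FPKM or more, and -0.042 over all 17. Hap1, the huntingtin-associated protein that links cargo to kinesin and dynactin, rose from 12.6 to 25.9 FPKM. The smaller rises were Kidins220, a kinesin-1 cargo at the membrane (65.3 to 77.2 FPKM), and Madd, which joins Rab3 vesicles to Kif1a and Kif1b (101 to 115 FPKM). The falls were Trak2, an adaptor between mitochondria and kinesin (28.6 to 22.4 FPKM), and Ppfia1, liprin alpha (24.1 to 20.7 FPKM). Ywhae, an adaptor of phosphorylated proteins, stood at 283 and 286 FPKM and Mapk8ip2, a scaffold on light chains, at 200 and 185 FPKM, and neither passed.

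Cytoplasmic dynein and dynactin carry cargo back to the cell body. Their genes gave 4 rises and 1 fall among 21 tested in the authors' deposited table. This was 23.8% called, beside 34.4% of all tested loci. The list had a median of 0.064. The rises were the dynein light chains Dynll1 (39.8 to 56.2 FPKM) and Dynlt3 (51.5 to 66.1 FPKM), the dynactin filament subunit Actr1b (149 to 184 FPKM) and the intermediate chain Dync1i2 (63.3 to 77.5 FPKM). The fall was that of Bicd2, an adaptor that activates dynein, from 9.21 to 5.20 FPKM. The heavy chain Dync1h1, at 85.6 and 93.8 FPKM, did not pass (q = 0.610 in the authors' deposited table).

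Markers of neuronal maturity had medians further from 0 than the kinesin classes, at 1.42 for immature and -0.82 for mature neurons. Of 11 tested markers of immature olfactory neurons 9 rose (81.8%, beside 15.1% of all tested loci) and none fell. Of 11 tested markers of mature ones 10 fell (90.9%, beside 19.2%) and none rose, in the authors' deposited table. Their sums were 520 FPKM in control and 978 in Nd1 for the immature list, and 17831 and 7534 FPKM for the mature list. The growth cone protein Gap43 rose from 12.2 to 24.9 FPKM, and Omp fell from 4087 to 605 FPKM. At the Omp locus the control of replicate 1 lacked the OMP-IRES-tTA allele that the other libraries carried. No marker of either list was at 0. Their part in the changes of Kif21b, Klc1, Kif5b and the other kinesins was not tested.

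**Figure D4:**
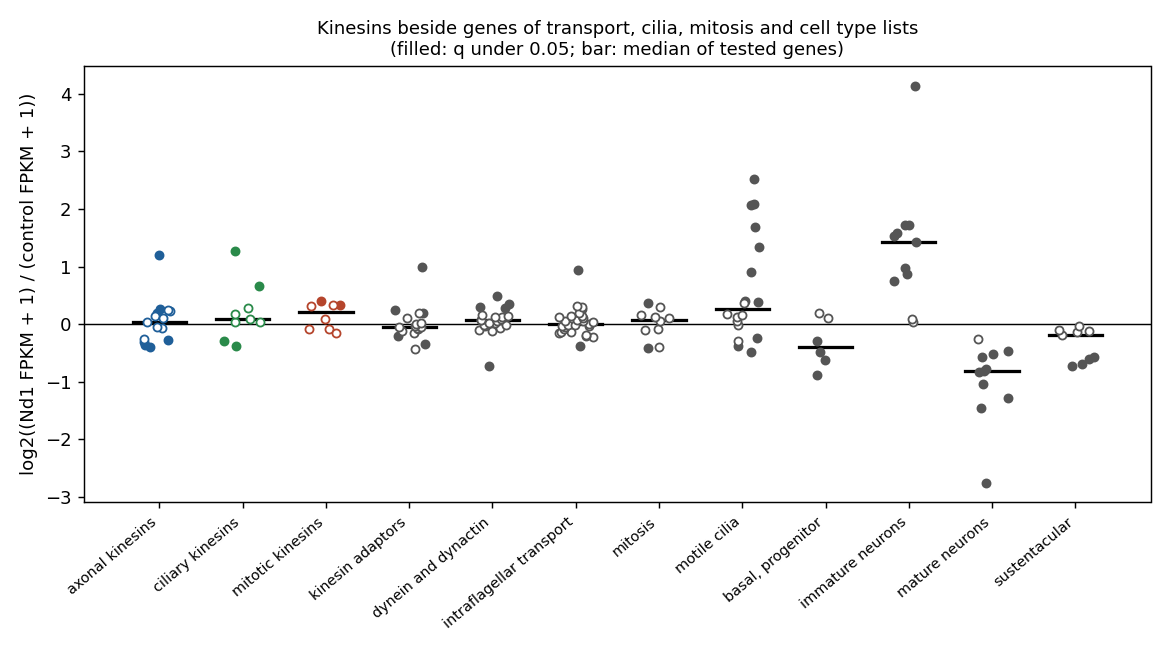
Log2 ratio of Nd1 over control with 1 FPKM added to each value, for tested genes of 3 kinesin classes and 9 further lists; each point is a gene, filled where q was under 0.05, and bars are medians of all tested genes without a filter on level. The axonal and ciliary kinesins centre at 0.044 and 0.092 with Kif21b and Kif19a set above them, while the immature neuron list centres well above 0 and the mature list below it, at 1.42 and -0.82.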

How the data were processed

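Reads were processed with Bowtie and Cuffdiff 1.3.0 on the build mm9, per the submitters' processing notes. For annotation, filters and use of strand the protocol is not given in the sources used here. A deposited table holds a pooled FPKM value per group, beside the authors' log2 fold change, statistic, p-value and q-value of Nd1 against control, per the file headers. Since libraries have no columns of their own, no test was run and the authors' calls at q under 0.05 are reported. The p-value was the two-sided normal tail of the statistic within 2% in 99.4% of tested loci, and the implied standard error is the log2 fold change divided by the statistic. Of its loci 14841 were tested, 12711 were not and 616 failed the authors' test, and library depth is unknown. Medians use log2(FPKM + 1), so that changes of low genes are understated, over tested loci of at least 0.5 FPKM mean. Coordinates are the table's bounds on mm9, with 1 added to each start.

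The members, classes, lists, motifs and naming rule were chosen with earlier results of these data known. Every kinesin may be named, and of other lists up to 4 called members, up to 2 abundant uncalled ones and 4 fixed markers, while genes that complete a small count were added after their values were seen. Entries joining several symbols were left out of the other lists. Of 10 motifs searched, a whole X-box, a cAMP response element, a GC box and part of a neuron-restrictive silencer are not described. The median and the quantile normalization were tested on simulated data. Alternatives changed the q-value threshold, the pseudocount, the filters, the scaling and the choice of entries. Analyses used Python 3.11.15, pandas 2.3.3, numpy 2.4.6 and scipy 1.17.1.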

Additional observations from a re-analysis of the deposited data

How the results depend on the processing

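No paired analysis was possible because the table holds a pooled value per group, and for the same reason no replicate could be left out. At q under 0.01 the kinesins called higher numbered 5 in place of 8, with Kif11, Klc1 and Kifc3 lost by the stricter threshold itself. With at least 1.5-fold also required, 0 in place of 6 were called lower in the authors' Cuffdiff table. The other alternatives kept both counts within 1.5 times, at 6 to 10 higher and 5 to 6 lower. A pseudocount of 0.1 gave a median of 0.66 in place of 0.33 for the mitotic kinesins, all of them low. A mean of at least 2 FPKM left no mitotic member. The other medians kept their sign and moved by less than the median implied error of their class, with 0.044 to 0.10 for axonal, 0.063 to 0.15 for ciliary and 0.21 to 0.47 for mitotic kinesins. No called member changed sign under centring or quantile normalization, while Klc2 and Kif15, not called, did. Calls of low members such as Kif11 and Kifc1 rest on values under 1 FPKM, whose read support is unknown.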

Other observations

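For 3 symbols the table had a further entry with the same bounds, which was not used. The lesser entry of Kif5b had 6.52 FPKM in control and 5.29 in Nd1 and did not pass (q = 0.593 in the authors' deposited table), in place of a called fall in the main entry. That of Kif27 stood at 1.07 and 1.02 FPKM (q = 0.939 in the authors' deposited table), and that of Kif7 was listed at 0 in both groups.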
